A study of Mus musculus with 9 samples.

Results

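The erythroid genes described here are Gata1, Klf1, Epor, Alas2, Slc4a1, Epb42, Rhag and Ahsp, followed in liver stroma from which Ter119+ cells had been removed. They were chosen by name, as genes of the red cell lineage, with earlier results of these data known. Each was read from 1 probe set (1 gene symbol, highest mean over the 9 arrays). Of the 8 genes, 7 were measured among 19938 genes. Ahsp had no probe set with a single symbol in the probe annotation and is not analysed here. In the study, stromal cells that carried no CD45 or Ter119 and expressed a red fluorescent Cxcl12-DsRed reporter were sorted from mouse livers for expression profiling on Affymetrix arrays. There were 3 arrays at embryonic day E15.5, 3 at postnatal day 5 (P5) and 3 at postnatal day 10 (P10). All 9 arrays came from mice of the C57BL/6 strain with the genotype Cxcl12DsRed/+, so every stage carried the same reporter allele and no group lacked it. The replicates of a stage are called independent, but whether each stands for an animal or a pool is not stated, so the p-values rest only on the variation among arrays, which may be technical.

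The liver is the main site of red cell formation in the fetus, and bone marrow takes this over around birth. GATA1 and KLF1 are the DNA-binding factors that switch on the genes of the erythroid programme, the erythropoietin receptor keeps erythroid progenitors alive, and ALAS2 makes the first committed step of erythroid haem synthesis. Band 3 (Slc4a1), protein 4.2 (Epb42) and the Rh-associated glycoprotein (Rhag) form the membrane complexes of the mature red cell, and AHSP is a chaperone of alpha globin. Ter119 is an antibody against a surface antigen carried from about the proerythroblast stage to the mature red cell, and not by the earliest erythroid progenitors. The gate therefore acted on the cell surface, while the arrays read the RNA of whatever was sorted. In sorted bulk samples of this kind, fewer erythroid cells and less erythroid RNA per cell cannot be told apart.

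The genes of the red cell membrane were highest at E15.5 and lower at both later stages. Slc4a1 was 2.77-fold lower at P5 and 3.27-fold lower at P10 than at E15.5. The log2 signal of Rhag differed by -1.88 and -2.15 and that of Epb42 by -0.58 and -0.60, but at P5 and P10 both lay near the bottom of the scale, so these differences hold for measured signals only, and their calls were lost when low values were floored. Alas2 went the other way and rose 2.17-fold from E15.5 to P10, most of it after P5. Gata1 fell by less than the membrane genes. Its P5 call was at the edge of the threshold, and its calls at both stages were lost in several refits. Epor was lower at P10 than at E15.5, a call also lost in some refits. Klf1 showed no difference that passed the test in any comparison. Of the 7 measured genes, 4 were called lower and 0 higher at P5 against E15.5, where 17.7% of all genes were called lower, 17.9% higher and 35.6% either way. At P10 against E15.5, 5 were called lower and 1 higher, with 18.6% and 20.1% of all genes called in these directions and 38.7% in either. At P10 against P5, 1 was called higher and 0 lower (2.76% and 2.89% of all genes, 5.65% either way). A call is an adjusted p under 0.05 in the moderated test of limma, with the Benjamini-Hochberg adjustment taken over the full set of 19938 genes. The median log2 difference of the 7 genes was -0.32 at P5 and -0.58 at P10 against E15.5, beside 0.029 and 0.024 for all genes.

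**Figure D1:**
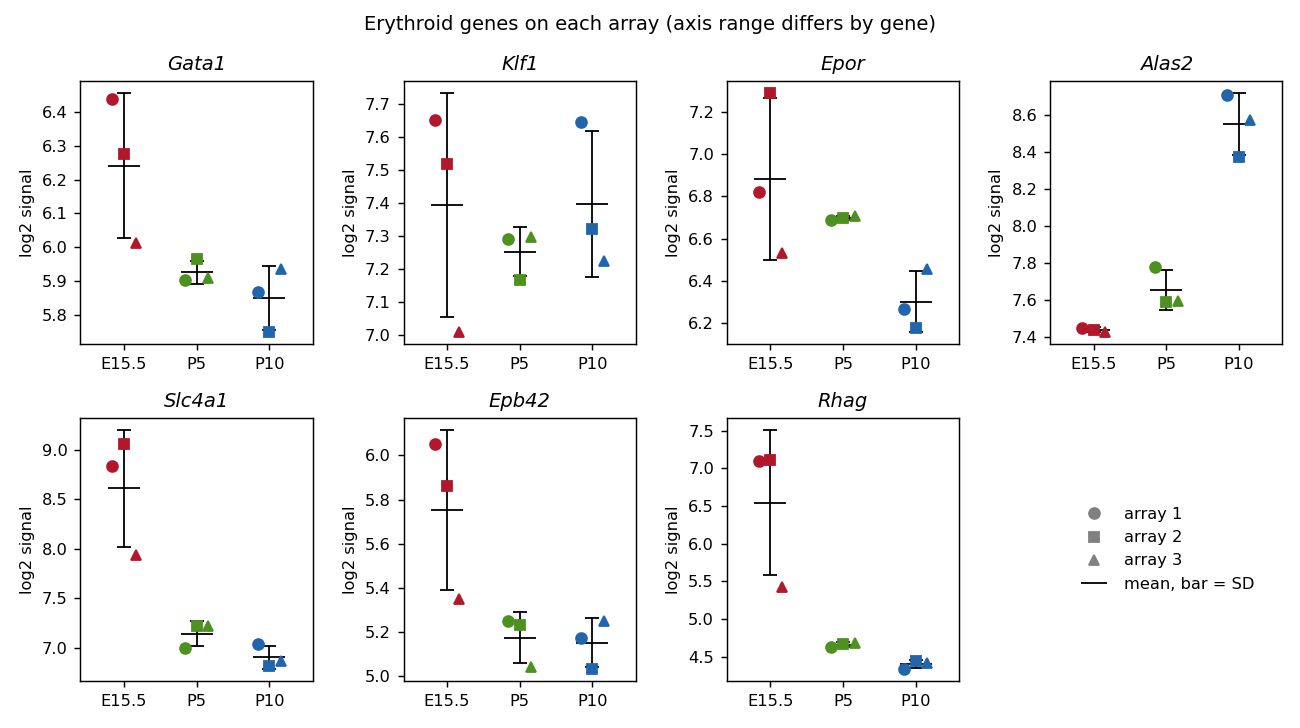
Log2 signal (y axis, own range for each gene) of the 7 measured erythroid genes on each array at E15.5, P5 and P10 (x axis), with the mean and SD of the 3 arrays of a stage. Slc4a1, Epb42, Rhag and Gata1 were higher on all 3 E15.5 arrays than on any later array, Alas2 was highest on the 3 P10 arrays, and E15.5 array 3 (triangle) was the lowest of its stage in 7 of 7 genes.

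The log2 signals of an array had a median between 6.22 and 6.45, and the correlation of arrays over probe sets (Pearson r, a description, since probe sets share arrays) was 0.983 to 0.993 within a stage and 0.901 to 0.985 between stages. The 3 E15.5 arrays were about as alike over all probe sets as those of other stages (r of 0.989 to 0.991). In the erythroid genes, however, E15.5 array 3 stood apart, though low values on it were not confined to them. It had the lowest signal of its stage in 7 of 7 measured genes, in 71 of the 106 other erythroid genes on the lists described further on, and in 39.5% of all genes. Its log2 signal minus the mean of arrays 1 and 2 was -1.68 for Rhag, -1.01 for Slc4a1, -0.61 for Epb42, -0.58 for Klf1, -0.53 for Epor and -0.34 for Gata1. Alas2 barely moved, at -0.020. The median of this difference was -0.58 over the 7 genes, -0.38 over the red cell membrane and cytoskeleton list and -0.021 over all genes. The median SD within E15.5 was 0.36 over the 7 genes and 0.10 over all genes, whereas at P5 these were 0.074 and 0.12. The results of each measured gene and the counts of each list against E15.5 are therefore given below with and without array 3. The sources used here give no array date or other batch.

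**Figure D2:**
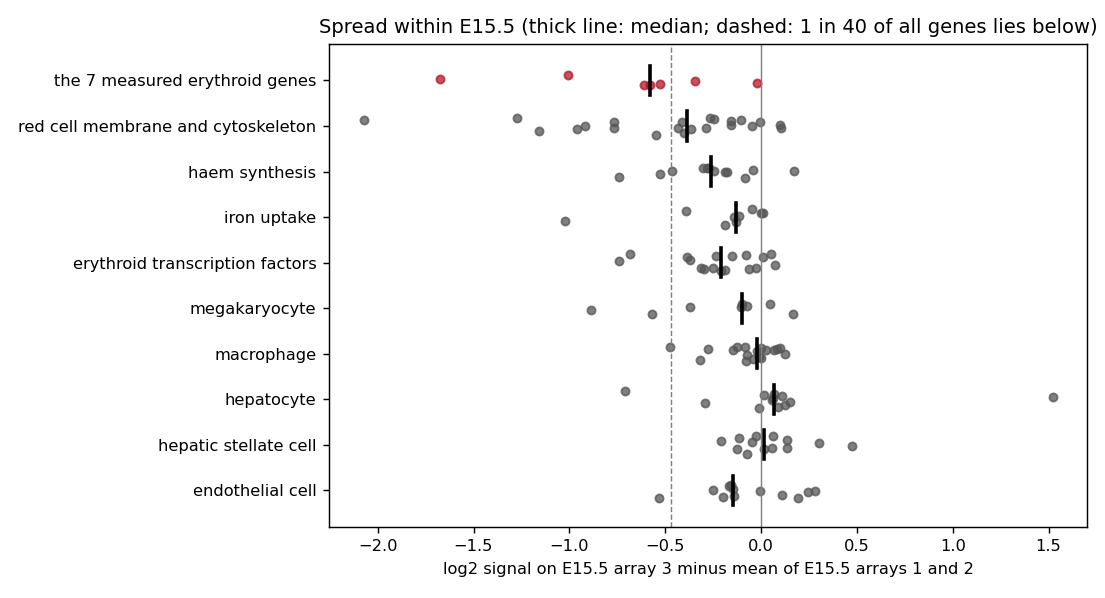
Log2 signal on E15.5 array 3 minus the mean of E15.5 arrays 1 and 2 (x axis) for each gene (points) of the 7 measured erythroid genes and of other lists (y axis); the thick line is the list's median and the dashed line marks -0.47, below which 1 in 40 of all genes lies. The 7 erythroid genes and the red cell membrane genes lie mostly to the left of 0, with medians of -0.58 and -0.38. Medians were -0.26 for haem synthesis, -0.21 for erythroid transcription factor and -0.13 for iron uptake genes. Outside the erythroid lists they were -0.14 (endothelial), -0.10 (megakaryocyte), -0.022 (macrophage), 0.014 (hepatic stellate cell) and 0.066 (hepatocyte).

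The transcription factors come first. Gata1, the X-linked zinc finger factor needed for red cell maturation, had log2 signals of 6.44, 6.27 and 6.01 on the 3 E15.5 arrays. It measured 5.90, 5.97 and 5.91 at P5 and 5.87, 5.75 and 5.94 at P10. All E15.5 arrays were above all later ones, though array 3 only narrowly, and the P5 and P10 arrays overlapped. The difference was -0.32 ± 0.11 (SE, n = 3 arrays a stage) at P5 and -0.39 ± 0.11 at P10 against E15.5 (limma adjusted p = 0.0484 and 0.0183). P10 against P5 gave -0.075 ± 0.11 (limma adjusted p = 0.814). Leaving out E15.5 array 3 gave differences of -0.43 and -0.50 from E15.5 (limma adjusted p = 0.00587 and 0.00224). The P5 call was at the edge of the threshold and was lost in 8 of the 9 fits that each left out 1 array, E15.5 array 3 being the exception. The P10 call was lost when arrays 1 or 2 of E15.5 or array 2 of P10 were left out singly (limma adjusted p up to 0.0682).

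Klf1, the zinc finger factor that activates adult beta globin and many red cell membrane genes, had log2 signals of 7.65, 7.52 and 7.01 at E15.5. It measured 7.29, 7.17 and 7.30 at P5 and 7.65, 7.32 and 7.22 at P10. The stages overlapped in every comparison, and the spread within E15.5 alone covered all later arrays. Its difference from E15.5 was -0.14 at P5 (95% interval -0.54 to 0.25) and 0.0030 at P10 (-0.39 to 0.40), with limma adjusted p = 0.581 and 0.993. When E15.5 array 3 was left out, these became -0.33 and -0.19 (limma adjusted p = 0.0946 and 0.332), so the sign at P10 turned. A change of about 0.4 in either direction would thus still lie within the interval at P10 against E15.5.

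Because both factors are among the genes followed, the promoters of the others are shown with the letters these factors are known to bind. RefSeq promoter sequences (GRCm38.p6) were matched by symbol for 6 of the 8 genes, all but Slc4a1 and Ahsp, and the 250 bases before the gene start were searched on both strands. The GATA letters AGATAA or TGATAA, which can share an end letter, were in 5 of these 6 windows, 1 match each, beside 16.6% of all promoter windows of the same length. Gata1 was the gene without them. The KLF1-type letters CCNCNCCC, which can overlap themselves, were in the windows of Gata1, Alas2 and Epor and in 45.9% of all windows. The E-box letters CANNTG, bound by TAL1 and its partners, were in 4 of 6 and in 66.2% of all windows. A match is a description of the letters, not of binding, and no binding was measured here. In Klf1, Epb42 and Rhag the GATA letters lay 80, 226 and 31 bases upstream of the start at their first base, and these 30-base stretches are shown with them in capitals, read along the gene's strand, where the match is on the opposite strand and appears as TTATCT or TTATCA.
Klf1, chr8:84901890-84901919, plus strand: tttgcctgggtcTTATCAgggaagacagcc
Epb42, chr2:121037086-121037115, minus strand: gtctctatttccTTATCTcgttcaaacaga
Rhag, chr17:40811106-40811135, plus strand: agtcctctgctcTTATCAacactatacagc
Alas2 and Epor were the 2 genes with both the GATA and the KLF1-type letters, and they are shown over the whole 250-base window, because Alas2 rose and Epor fell between E15.5 and P10. Capitals mark the GATA and the KLF1-type letters, the latter with overlapping matches joined. The GATA match began 86 bases upstream of the start in Alas2 and 54 bases upstream in Epor.
Alas2, chrX:150547167-150547416, plus strand: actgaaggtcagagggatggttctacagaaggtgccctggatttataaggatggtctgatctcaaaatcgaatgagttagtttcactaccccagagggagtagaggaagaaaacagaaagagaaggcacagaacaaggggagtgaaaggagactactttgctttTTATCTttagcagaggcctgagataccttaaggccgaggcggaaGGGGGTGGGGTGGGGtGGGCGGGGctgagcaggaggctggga
Epor, chr9:21963577-21963826, minus strand: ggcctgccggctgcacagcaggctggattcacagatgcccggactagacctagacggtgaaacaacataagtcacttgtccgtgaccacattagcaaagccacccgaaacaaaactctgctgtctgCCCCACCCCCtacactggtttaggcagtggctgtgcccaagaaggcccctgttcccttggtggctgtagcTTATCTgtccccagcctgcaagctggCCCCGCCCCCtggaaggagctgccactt
Each of the 2 windows holds 1 GATA match and 4 KLF1-type matches, the latter on the gene's strand in Epor and on the opposite strand in Alas2, and Epor also has 2 E-box matches where Alas2 has 0. The letters are a description, while the log2 signals of the 2 genes moved in opposite directions between E15.5 and P10.

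Epor encodes the receptor through which erythropoietin acts on erythroid progenitors. Its log2 signals were 6.82, 7.29 and 6.53 at E15.5, then 6.69, 6.70 and 6.71 at P5, and 6.27, 6.17 and 6.46 at P10. The P5 arrays were nearly equal and lay inside the E15.5 range, whereas all 3 P10 arrays were below every array of the other stages. The difference from E15.5 was -0.18 ± 0.17 at P5 (limma adjusted p = 0.463, 95% interval -0.58 to 0.21) and -0.58 ± 0.17 at P10 (limma adjusted p = 0.0262). P10 against P5 gave -0.40 ± 0.17 and did not pass the test (limma adjusted p = 0.268), although the 3 arrays of each stage did not overlap. Without E15.5 array 3 the differences from E15.5 were -0.36 at P5 and -0.76 at P10 (limma adjusted p = 0.107 and 0.00496). The P10 call was lost without E15.5 array 1, P10 array 1 or P10 array 2 (limma adjusted p up to 0.0883).

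Alas2, the erythroid form of the enzyme that starts haem synthesis, was the only gene of the group called higher in any comparison. Its log2 signals were 7.45, 7.44 and 7.42 at E15.5. They were 7.78, 7.59 and 7.59 at P5 and 8.71, 8.38 and 8.58 at P10. The 3 stages did not overlap, and within E15.5 the arrays lay closer together than those of any other gene measured in the group, array 3 included. The rise from E15.5 to P5 was 0.22 ± 0.092 and did not pass the test (limma adjusted p = 0.109), whereas that from P5 to P10 was 0.90 ± 0.092 (limma adjusted p = 0.00166, 1.87-fold). From E15.5 to P10 it came to 1.12 ± 0.092 (limma adjusted p = 2.09e-05). The later interval exceeded the earlier one by 0.69 ± 0.16, with a limma adjusted p of 0.0211 for the difference between the intervals, a test that called 16.6% of all genes (7.93% with the later interval higher and 8.70% with it lower) and 1 of the 7 erythroid genes. Leaving out E15.5 array 3 changed these values little (1.11 at P10 against E15.5, limma adjusted p = 0.000188). The difference between the intervals was no longer called without P5 array 2 or without P5 array 3 (limma adjusted p up to 0.0824). Alas1, the form of the enzyme used in the liver and most tissues, rose in the same samples by 1.50 ± 0.11 at P5 and 3.09 ± 0.11 at P10 against E15.5 (limma adjusted p = 1.81e-05 and 2.19e-07). The probe sequences were not used here, so whether the Alas2 probe set also reads Alas1 was not tested.

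Slc4a1 encodes band 3, the chloride and bicarbonate exchanger that also anchors the membrane to the cytoskeleton. Its log2 signals were 8.84, 9.06 and 7.94 at E15.5. They were 6.99, 7.22 and 7.22 at P5 and 7.04, 6.81 and 6.86 at P10. Every E15.5 array was above every later one, and the later stages overlapped. The difference from E15.5 was -1.47 ± 0.25 at P5 and -1.71 ± 0.25 at P10 (limma adjusted p = 0.00200 and 0.000689), while P10 against P5 gave -0.24 ± 0.25 (limma adjusted p = 0.726). Without E15.5 array 3 the differences were -1.81 and -2.05 (limma adjusted p = 2.64e-05 and 9.77e-06). With array 3 as the only E15.5 array, a setting chosen after seeing the data in which the lone array takes its spread from the other stages, they were -0.80 and -1.04 (limma adjusted p = 0.00822 and 0.00238). Both calls also held in each of the 9 fits that left out 1 array.

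Epb42 encodes protein 4.2, which binds band 3 at the inner face of the membrane. It had log2 signals of 6.05, 5.86 and 5.35 at E15.5. The values were 5.25, 5.23 and 5.04 at P5 and 5.17, 5.03 and 5.25 at P10. E15.5 array 3 lay close to the highest later values, though above them, and the later stages overlapped. The difference from E15.5 was -0.58 ± 0.17 at P5 and -0.60 ± 0.17 at P10 (limma adjusted p = 0.0257 and 0.0200), with -0.022 ± 0.17 for P10 against P5 (limma adjusted p = 0.974). The first pair became -0.78 and -0.80 without E15.5 array 3 (limma adjusted p = 0.00111 and 0.000741), and with array 3 alone -0.17 and -0.20 (limma adjusted p = 0.406 and 0.334). The P5 call was lost when arrays 1 or 2 of E15.5 or arrays 2 or 3 of P5 were left out singly (limma adjusted p up to 0.0818), and the P10 call when arrays 1 or 2 of E15.5 or array 2 of P10 were (up to 0.0708).

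Rhag encodes the glycoprotein that carries the Rh proteins to the red cell surface and conducts ammonia. Its log2 signals were 7.09, 7.12 and 5.43 at E15.5, the widest spread of the group. They were 4.62, 4.67 and 4.69 at P5 and 4.34, 4.45 and 4.42 at P10. E15.5 array 3 lay between its stage mates and the later arrays, and each P10 array was below each P5 array. The difference from E15.5 was -1.88 ± 0.39 at P5 and -2.15 ± 0.39 at P10 (limma adjusted p = 0.00555 and 0.00239). P10 against P5 gave -0.26 ± 0.39 (limma adjusted p = 0.828). Without E15.5 array 3 the SE shrank to 0.060 and the differences from E15.5 were -2.44 and -2.70 (limma adjusted p = 5.38e-07 and 3.01e-07). The same fit called the -0.26 between P5 and P10 (limma adjusted p = 0.0409), but both stages lay near the median of the receptor genes used below to mark the bottom of the scale, so no difference is read from it. With array 3 alone at E15.5 the differences were -0.77 and -1.03 (limma adjusted p = 0.00121 and 0.000296), and both calls held in each of the 9 fits that left out 1 array.

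**Figure D3:**
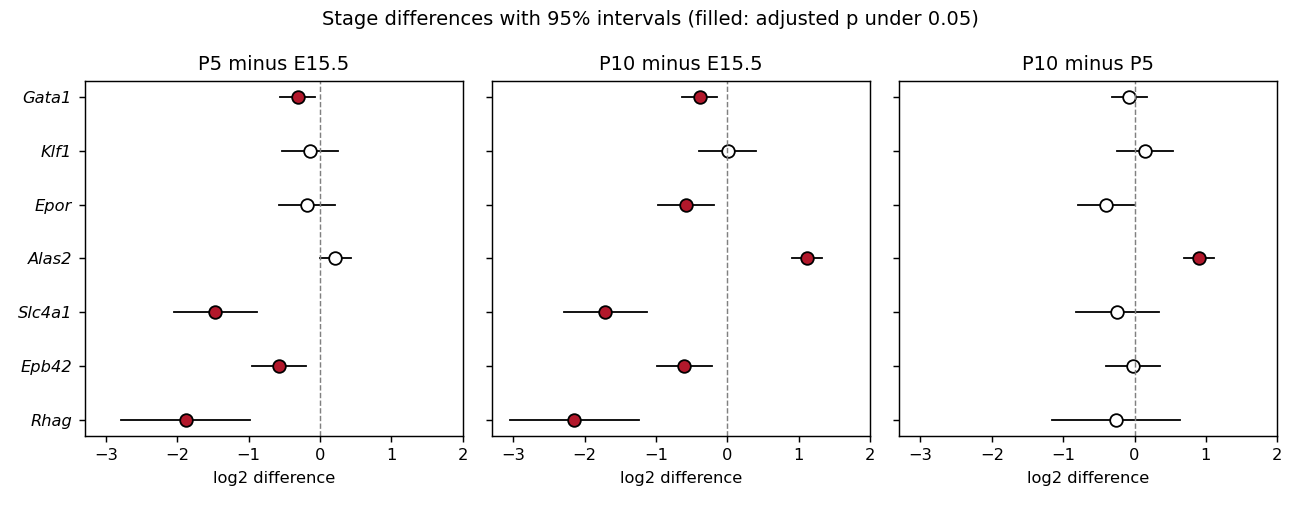
Log2 difference (x axis) of each of the 7 measured erythroid genes (y axis) in the 3 comparisons, with 95% intervals from limma; filled points have an adjusted p under 0.05. Slc4a1, Rhag, Epb42 and Gata1 lie left of 0 against E15.5 at both later stages, Epor does so at P10, and Alas2 is the only filled point of the group to the right of 0.

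Non-overlap of the stages gave a like picture. At P5 all 3 arrays were below all E15.5 arrays for 4 of the 7 genes and above them for 1, and at P10 for 5 and 1; over all genes the shares were 21.1% and 24.1% at P5 and 23.8% and 27.9% at P10. P10 arrays were all below P5 arrays for Rhag and Epor and all above for Alas2, with 9.66% and 10.6% of all genes. The moderated F test over the 3 stages called 5 of the 7, with 38.3% of all genes called, and 6 of the 7 without E15.5 array 3. Epor and Klf1 did not pass it (limma adjusted p = 0.0608 and 0.749). Without E15.5 array 3 the test of the difference between the intervals called 4 of the 7 in place of 1: Slc4a1 (1.57), Rhag (2.18) and Epb42 (0.76) joined Alas2 (0.69), with limma adjusted p = 0.00155, 2.66e-05, 0.0241 and 0.0416. For the first 3 of these the drop came between E15.5 and P5. The shares of all genes called by the F test and the interval test without E15.5 array 3 are not given here. The larger counts without that array are therefore not read as a result about these genes.

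How far these signals lay above the bottom of the scale was described with olfactory and vomeronasal receptor genes, which serve the sense of smell. Their median log2 signal was 4.45 to 4.52 and their percentile 95 was 5.80 to 5.97 over the 9 arrays. Slc4a1, Klf1, Alas2 and Epor were above this percentile 95 on all 9 arrays. Gata1 was above it on 3 E15.5, 2 P5 and 1 P10 arrays, Rhag on 2 E15.5 arrays and no later one, and Epb42 on 1 E15.5 array alone. Rhag at P5 and P10 thus lay near the median of the receptor genes. Probe sets differ in affinity, so this is no detection call. When all values were floored at percentile 30 of all genes (5.64 to 5.74), the differences of Rhag shrank to -0.93 and -0.97 and those of Epb42 to -0.16 and -0.20, and none of these 4 passed the test (limma adjusted p = 0.0805, 0.0665, 0.206 and 0.115).

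Of 120 other erythroid genes in 8 lists, 106 were measured. At P5 against E15.5, 31 were called higher and 25 lower, and at P10 against E15.5 29 and 29, with 17.9% and 17.7%, then 20.1% and 18.6% of all genes. Without E15.5 array 3 these counts were 28 and 33, then 24 and 34. Over all 19938 genes, that fit called 6196 at P5 (3007 of them higher) and 6797 at P10 (3448 of them higher). With all arrays the calls were 7089 (3560 higher) and 7716 (3998 higher). List counts without that array, given below, come from the same fit. The median log2 difference of the 106 genes with all arrays was 0.066 and -0.0071, whereas the 7 genes above had -0.32 and -0.58. The lists differed from each other in direction. The counts of each list below are to be set beside the shares of all genes given here.

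The red cell membrane and cytoskeleton list had the most genes called lower of the 8. Of 22 measured genes, 3 rose and 9 fell at P5 and 2 rose and 14 fell at P10 against E15.5. The counts without E15.5 array 3 were 2 and 15, then 2 and 16. Rhd, which pairs with Rhag in the Rh complex, fell by 1.34 ± 0.26 at P5 and by 1.50 ± 0.26 at P10 (limma adjusted p = 0.00414 and 0.00185), and by 1.64 and 1.81 without E15.5 array 3. On E15.5 array 3 it read 7.47, below the 8.52 and 8.25 of its stage mates. The largest decreases of the genes named were in genes also used outside red cells, with -1.90 and -2.66 for Stom, -1.65 and -2.01 for the efflux pump gene Abcg2, and -1.60 and -1.78 for the glucose transporter gene Slc2a1. Stom, at 10.12, 10.13 and 10.12 on the E15.5 arrays, did not share the low value of array 3. Cd59a, a complement inhibitor, and Mpp1, a scaffold protein, rose by 1.31 and 1.03 at P5 and by 1.85 and 1.54 at P10.

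Of 12 measured genes of haem synthesis, the pathway Alas2 belongs to, 6 rose, 1 fell and 5 did not pass at P5, and 7 rose, 1 fell and 4 did not pass at P10 against E15.5. With E15.5 array 3 left out, 6 rose and 2 fell at each stage. Abcb10 was the gene that fell in both comparisons with all arrays, and unlike Alas2, the 6 risers at P5 had already passed by then. Besides Alas1, the rises at P5 and P10 were 1.54 and 1.91 for Fech, which inserts iron into haem, 1.70 and 1.60 for Cpox, 1.00 and 1.47 for Alad, and 0.88 and 1.39 for Urod, all enzymes of the pathway. Clpx, which acts on ALAS enzymes in mitochondria, rose by 2.63 and 2.73. Between P5 and P10, the interval in which Alas2 was called higher, only Alas1 of this list was called (1.58 ± 0.11, limma adjusted p = 0.000594), and Alad joined it without E15.5 array 3. Hepatocytes also make haem. Of 12 measured hepatocyte genes, 8 rose and 1 fell at P5 and 5 rose and 2 fell at P10 against E15.5 (8 and 0, then 5 and 2, without E15.5 array 3). Between P5 and P10, however, 0 rose and 4 fell (1 and 4 without that array). Against E15.5, Cps1, an enzyme of the urea cycle, rose by 4.20 and 5.27 and Hnf4a, a hepatocyte transcription factor, by 2.45 and 2.50. Alb was between 13.03 and 13.21 on every array. The part of hepatocyte RNA in the Alas2 result was not tested.

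Iron uptake genes were mixed. The transferrin receptor gene Tfrc, the main iron entry of erythroblasts and of dividing cells in general, fell by 1.50 ± 0.30 at P5 and by 1.08 ± 0.30 at P10 (limma adjusted p = 0.00431 and 0.0198), and by 1.84 and 1.42 without E15.5 array 3. It read 9.40, 9.74 and 8.55 on the E15.5 arrays, again lowest on array 3. Slc25a37, the mitochondrial iron importer mitoferrin 1, fell by 1.01 and 0.80. Aco1, an iron-sensing RNA-binding protein, and the haem transporter gene Slc48a1 rose by 1.10 and 1.20 at P5. In all, 4 of 9 rose and 2 fell at P5, and 2 rose and 2 fell at P10 (3 and 2, then 2 and 2, without E15.5 array 3). Of 19 measured cell cycle genes, 13 fell and 0 rose at P5, and 4 fell and 4 rose at P10 (12 and 0, then 4 and 2, without E15.5 array 3).

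Among 17 other erythroid transcription factors and cofactors, 3 rose and 3 fell at P5 and 4 rose and 4 fell at P10 against E15.5 (3 and 4, then 2 and 5, without E15.5 array 3). Tal1, a partner of GATA1, measured 7.01 to 7.11 at E15.5 and differed by 0.11 and 0.02 at P5 and P10 (limma adjusted p = 0.284 and 0.852). Zfpm1, the cofactor FOG1, rose by 0.60 and 0.66 and Ldb1, which joins these factors into 1 complex, fell by 0.96 and 0.99. Bcl11a, a repressor of embryonic and fetal globins, fell by 0.79 and 1.03, and Gfi1b differed by -0.22 and -0.27, of which only the second passed (limma adjusted p = 0.102 and 0.0446), though both did without E15.5 array 3 (0.0379 and 0.0170). Nfe2 was the only one called between P5 and P10, at -1.01 ± 0.20 (limma adjusted p = 0.0268). In 13 of the 17, E15.5 array 3 was the lowest of its stage.

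Of 14 measured erythropoietin signalling genes, 6 rose and 4 fell at P5 and 7 rose and 3 fell at P10 (5 and 3, then 6 and 2, without E15.5 array 3). Stat5b, which carries the signal of this and other cytokine receptors, rose by 0.89 and 1.53, and its feedback targets Socs2 and Cish rose by 2.87 and 3.02 and by 1.03 and 1.37. These genes also serve growth hormone and other receptors in hepatocytes, so the list is not read as a measure of erythropoietin action. Epo itself measured 4.68 to 5.65 over the 9 arrays, all below the percentile 95 of the receptor genes, so no rise is read from its 0.51 ± 0.16 at P10, whose call (limma adjusted p = 0.0342) was lost without E15.5 array 3 (0.116).

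Markers of late red cells outside the membrane split as well. Of 18 measured, 8 rose and 4 fell at P5 and 6 rose and 2 fell at P10 (8 and 4, then 5 and 4, without E15.5 array 3). Hemgn, an erythroid nuclear protein, fell by 1.11 ± 0.20 and 1.53 ± 0.20 (limma adjusted p = 0.00225 and 0.000289), or by 1.37 and 1.79 without E15.5 array 3. The largest rise of the list at P5 was in Car1, a carbonic anhydrase abundant in red cells, at 2.62 ± 0.52 (limma adjusted p = 0.00419) and 1.78 ± 0.52 at P10 (0.0249, and 0.0801 without E15.5 array 3). Ube2l6, Blvrb, Cat and Car2, which other cells also use, rose by 2.42, 2.31, 2.21 and 1.72 at P5. Of 6 measured globin genes, Hbb-bh1, an embryonic beta-like globin, was the only one called, at -1.22 and -1.24 (limma adjusted p = 0.00102 and 0.000764), or -1.13 and -1.15 without E15.5 array 3, with all later signals below the receptor genes' percentile 95. The adult alpha and beta globin genes were not on single-symbol probe sets and are not analysed here. Of 8 measured early progenitor genes, 1 rose and 1 fell at P5 and 1 rose and 2 fell at P10 (1 and 2 at both without E15.5 array 3). Neither Kit, the stem cell factor receptor, at 0.00 and -0.41 (limma adjusted p = 0.995 and 0.160), nor Gata2, at -0.01 and -0.07 (limma adjusted p = 0.933 and 0.593), passed the test.

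**Figure D4:**
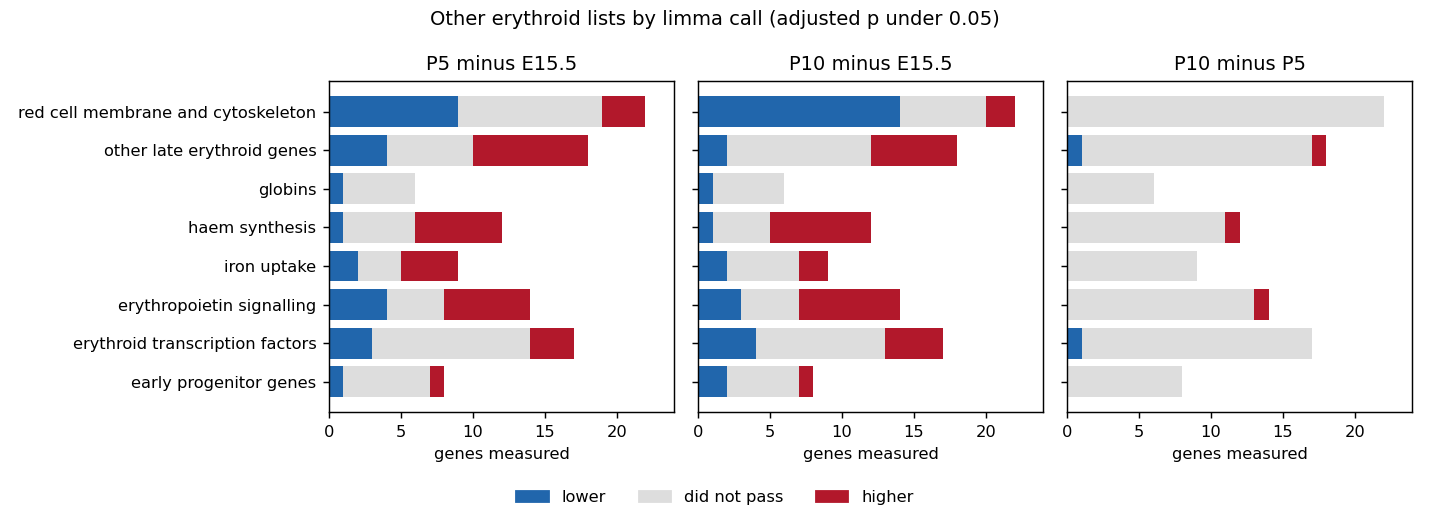
Number of measured genes (x axis) of each other erythroid list (y axis) called lower, called higher or not passing the limma test at an adjusted p under 0.05, in the 3 comparisons. The red cell membrane and cytoskeleton list had 9 lower and 3 higher at P5 and 14 lower and 2 higher at P10 against E15.5, the haem synthesis list 1 lower and 6 higher, then 1 and 7, and few genes were called between P5 and P10.

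Markers of the cells that could accompany erythroid RNA in the sort were set beside these results. Over all genes, 17.9% were called higher and 17.7% lower at P5 against E15.5, and 20.1% and 18.6% at P10. Ptprc, which encodes CD45, was between 4.97 and 5.20 and the macrophage gene Adgre1 between 4.75 and 4.98 on all arrays, near the receptor genes. Of 19 macrophage genes, 3 rose and 2 fell at P5 and 1 rose and 2 fell at P10 (2 and 2, then 0 and 2, without E15.5 array 3), and their summed linear signal was 1232 to 1388 at E15.5, 1191 to 1457 at P5 and 1081 to 1199 at P10. Of 8 measured megakaryocyte genes, 3 fell, 0 rose and 5 did not pass at both P5 and P10 (3, then 4, fell without E15.5 array 3), with summed linear signals of 1056 to 1696 at E15.5, 664 to 795 at P5 and 674 to 743 at P10. Pf4, a platelet granule chemokine, read 7.52, 9.18 and 7.98 at E15.5 and fell by 2.72 ± 0.40 at P5 and by 2.53 ± 0.40 at P10. Pf4 was not lowest on E15.5 array 3, though 5 of the 8 megakaryocyte genes were, Ppbp among them (7.43, 8.38 and 7.01). Without that array Pf4 differed by -2.85 and -2.66. Megakaryocytes share GATA1 with red cells, and the part of their RNA in the Gata1 result was not tested. The reporter gene itself, Cxcl12, read 10.68 to 11.31 at E15.5, with array 3 the highest, and fell by 0.81 ± 0.17 at P5 and by 0.85 ± 0.17 at P10 (0.64 and 0.68 without array 3). All 13 genes of the stellate cell list fell at both stages, with or without E15.5 array 3. Their summed linear signals were 18930 to 21577 at E15.5, 6373 to 8194 at P5 and 4790 to 6036 at P10. Hepatocyte genes summed to 63681 to 66688, 77696 to 80146 and 64394 to 73009. The share of each cell type in the sorted samples was not measured, so its part in the erythroid differences was not tested.

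The genes most like each erythroid gene were found among all other genes by the smallest root mean square difference between log2 profiles over the 9 arrays, each centred on its own mean, for the 5 genes whose arrays spanned at least 1 on the log2 scale. For Slc4a1 these were Hemgn (0.179), Slc43a1 (0.192) and Gata5 (0.196). Hemgn, a gene of the erythroid lists, was the closest to Slc4a1 by a narrow margin, with 8.26, 8.22 and 7.48 at E15.5. The lists were chosen with earlier results of these data known, so this is a description only. For Rhag they were Hmga2 (0.242), Igsf1 (0.265) and Snord52 (0.287), all outside the erythroid lists and also lowest of their stage on E15.5 array 3. Hmga2 read 9.09, 9.16 and 8.27 on the E15.5 arrays. For Epb42 they were Nr0b1 (0.0678), Rad9a (0.0800) and Lor (0.0831), for Epor Hbegf (0.0737), Cstad (0.0874) and Lhfpl3 (0.0936), and for Alas2 Noct (0.117), Ncam2 (0.130) and Tmem71 (0.131). No gene was among the closest of more than 1 of the 5, and Hemgn was the only gene of the erythroid lists to appear. A small difference is reached more easily by genes whose signals vary little, so values are not compared between genes.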

How the data were processed

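Sorted liver stroma of 3 stages was measured on 9 arrays, 3 a stage, with total RNA extracted in Trizol and labelled as biotinylated cRNA, per the labels' protocols. The deposited values are log2 signals, made by the authors with RMA, and Affymetrix Expression Console and Transcriptome Analysis Console 2.0 are also named, per the submitters' processing notes. RMA equalises probe distributions between arrays, so a change shared by most genes would be removed. No source used here gives the genome build of the probe annotation, so coordinates are printed for promoters alone. Of 35556 probe sets, 21789 carried 1 gene symbol, 1621 carried several and 12146 were outside the annotation; Entrez identifiers updated 21698 symbols. These gave 19938 genes, each read from its probe set with the highest mean, and 999 had several. The number of arrays limits the precision.

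Stage was the only term in limma 3.58.1 (statmod 1.5.0, R 4.3.3), with 6 residual and 2.22 prior degrees of freedom. The 2-sided moderated tests set P5 and P10 against E15.5, P10 against P5, and the step from P5 to P10 against that from E15.5 to P5, and a moderated F test covered the stages together. On simulated data with 19938 genes (P5 minus E15.5), 80% of 100 genes changed by 1 on the log2 scale were recovered. Of 100 changed by 2, 97% were recovered, and 7.33% of the calls were false. All other genes were left unchanged, with independent normal noise and no outlying array. In the measured data 35.6% of genes were called in this comparison, so these rates need not hold there. Same-numbered arrays of different stages were not paired (r of residuals -0.079 to 0.069, 0 of 9 pairs over 0.1). Alternatives were the replicate number as a block, 3 other scalings, a filter and a floor at percentile 30, probe set rules, other priors and models, and leaving out each array. Figures were drawn with matplotlib 3.10.9 in Python 3.11.15.

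The genes followed and all lists were chosen with earlier results of these data known. Besides these genes, up to 6 measured genes of a list could be named, those called in most comparisons first and then by size, with a few fixed ones such as Tfrc, Kit, Tal1, Alas1, Epo, Ptprc, Cxcl12 and Pf4. The lists were erythroid transcription factors, early progenitor, globin, haem synthesis, iron uptake, red cell membrane, other late erythroid and erythropoietin signalling genes, and macrophage, megakaryocyte, granulocyte and mast cell, hepatocyte, stellate cell, endothelial and cell cycle markers.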

Additional observations from a re-analysis of the deposited data

How the results depend on the processing

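Over 22 alternatives, 12 of 28 differences of the 7 genes were called as reported. In 259 refits of these, 202 kept the call, 57 lost it and 0 turned sign, and 7 of 342 refits of the others gained a call. Slc4a1 and Rhag against E15.5 and Alas2 at P10 against both stages kept their calls in every fit that left out 1 array. With the replicate number as a block, P5 against E15.5 called 3 of the 7 (Gata1 was lost, limma adjusted p = 0.0757), the F test 4, and the other comparisons as many as reported; of the other erythroid genes 53, 58 and 4 were called. Over all genes the block called 6886, 7440 and 893 in the 3 comparisons. For P5 against E15.5 (4 as reported, with 7089 of all genes called), the filter gave 2 of 5, with 6793 of 13956 called over all. Under the filter Rhag and Epb42 were not tested. The fit of only these 2 stages and the unmoderated model gave 2 of 7, with 6431 and 6192 of 19938 genes called. The floor gave 1 (6570 over all genes), and leaving out single arrays 2 to 4 (6194 to 7174). For P10 against E15.5 (6, with 7716 of all genes called) leaving out single arrays gave 3 to 6 (6754 to 7895 over all genes). For P10 against P5 (1, with 1126) it gave 1 to 2 (586 to 1385). The difference between intervals (1) gave 0 under quantile normalization, ribosomal centring and the unmoderated model, and 0 to 4 without single arrays. The F test (5) gave 3 under quantile normalization, the floor and the unmoderated model, and 3 to 6 without single arrays. For the difference between intervals and the F test, the counts over all genes under these alternatives are not given here. Chosen after seeing the data, leaving out both E15.5 arrays 1 and 2 gave 2 at P5 and 3 at P10 against E15.5, and leaving out both P5 arrays 2 and 3 gave 1 at P5, 0 for the intervals and 3 for the F test. Of other erythroid genes, 36 in place of 56 were called at P5 without E15.5 arrays 1 and 2. Each of these fits left 1 array in a stage. Fewer of all genes were also called at P5 against E15.5 in both fits. The same held at P10 against E15.5 without E15.5 arrays 1 and 2. The lower counts in these fits are therefore not read as a result about the erythroid genes. Between P5 and P10, 5 of the 106 other erythroid genes were called as reported, beside 1126 (5.65%) of all genes. Centring on all genes gave 8 of them (1345 over all genes), only 2 stages 3 (709) and the unmoderated model 1 (441). Leaving out single arrays gave 3 to 8 (586 to 1385 over all genes). Signs turned only in differences that were not called. For Klf1 these were P5 against E15.5 at 0.24 and the intervals at -0.099 without E15.5 arrays 1 and 2, and P10 against E15.5, which ran from -0.19 to 0.13 without single arrays. For Epb42 at P10 against P5 the values were 0.017 with quantile normalization, 0.042 with centring on all genes, and -0.089 to 0.037 without single arrays. Epor at P5 against E15.5 gave 0.17 without E15.5 arrays 1 and 2 and -0.36 to 0.021 without single arrays. The cause of these changes was not tested. Quantile normalization moved the median of all genes by 0.088 at P5 and 0.126 at P10 against E15.5, and ribosomal centring by 0.118 and 0.126. The share of all calls that were higher went from 50.2% to 64.1% and 63.3% at P5 and from 51.8% to 69.4% and 64.3% at P10 under these 2 scalings, and to 65.6% at P10 with centring on all genes, which also took it from 48.8% to 63.5% between P5 and P10. For the 7 genes the split at P5 went from 0 higher and 4 lower to 1 and 3 under both, as Alas2 gained a call (0.33, limma adjusted p = 0.0224 and 0.0466) and Gata1 lost its own (limma adjusted p = 0.173 and 0.169). At P10 it went from 1 higher and 5 lower to 1 and 3 with quantile normalization, where Gata1 and Epor lost their calls (limma adjusted p = 0.128 and 0.0841), and to 1 and 4 with ribosomal centring, where Gata1 did (0.0788). For the other erythroid genes it went from 31 higher and 25 lower to 39 and 22 with quantile normalization and 37 and 18 with ribosomal centring at P5, and from 29 and 29 to 40 and 21 and 31 and 22 at P10.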

Other observations

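Single arrays also stood apart in genes of other blood and vessel cells, on other arrays than the one that was low in erythroid genes. S100a9 and S100a8, calcium-binding proteins of neutrophils, had log2 signals of 8.52 and 7.46 on E15.5 array 2, whereas the other 8 arrays lay between 5.42 and 6.89 and between 5.20 and 5.89. On the same array Pf4 (9.18) and Ppbp (8.38) had their highest values of all 9 arrays. Of the 7 erythroid genes, Slc4a1 (9.06), Rhag (7.12) and Epor (7.29) were highest there, Gata1 (6.44), Epb42 (6.05) and Klf1 (7.65) on E15.5 array 1, and Alas2 (8.71) on P10 array 1. At P5, all 12 endothelial genes were higher on arrays 2 and 3 than on array 1, and their summed linear signal ran from 1113 to 4324. Clec4g, a lectin of sinusoidal endothelium, read 6.63, 9.78 and 9.41 on these arrays. Of the 7 erythroid genes, 4 were higher on both arrays 2 and 3 than on array 1, and the summed linear signal of the 7 was 714 to 729 at P5. The share of all genes higher on both arrays is not given here, so neither count is read as a result about its genes. The part of these cell types in any erythroid value was not tested.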
